A study of Mus musculus with 48 samples.

Results

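The 10 genes described here encode secreted hormones of the hypothalamus and the pituitary gland. They are Avp (vasopressin) and Oxt (oxytocin), Trh and Crh (the thyrotropin- and corticotropin-releasing hormones), Hcrt (the orexins) and Pmch (melanin-concentrating hormone), Cga and Tshb (the subunits of thyrotropin), Prl (prolactin) and Gh (growth hormone). They were chosen by symbol, with no measured value in the rule, from a table of read counts for 38293 mouse genes in 48 libraries. All 10 were in the table, each under 1 Ensembl identifier.

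The libraries come from male C57/Bl6 mice, 9 weeks old and kept on chow, with 3 libraries in each of 16 groups. After a fast of 6 h the mice received 10 µL per g of body weight, intraperitoneally, of saline, of AC3174 (1 µg/kg, a GLP-1 receptor agonist), of AC170222 (2.5 µg/kg, a CCK receptor agonist) or of both drugs (the combination, of unstated doses). The treatment labels spell the second drug AC710222, a name the protocol also lists with doses of 2.5 and 10 µg/kg next to exenatide (1 µg/kg), so its dose here is uncertain. The sources used here do not give the delay between injection and dissection. Pieces of the dorsal vagal complex (DVC, in the hindbrain) or the mediobasal hypothalamus (MBH) were homogenised, and each homogenate gave total RNA (input) and RNA of ribosomes captured through phosphorylated ribosomal protein S6 (IP), a mark raised in active neurons. The labels do not say whether the 3 libraries of a group come from separate mice, so p-values measure the spread between these libraries, which may be technical.

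As background, magnocellular neurons of the paraventricular and supraoptic nuclei make vasopressin and oxytocin and release them from the posterior pituitary, and vasopressin is also made in the suprachiasmatic nucleus. Parvocellular neurons of the paraventricular nucleus release TRH and CRH at the median eminence, to act on the anterior pituitary. Orexin and melanin-concentrating hormone are made in separate neurons of the lateral hypothalamus. Both promote feeding, while orexin neurons promote wakefulness and melanin-concentrating hormone neurons promote sleep. None of these nuclei belongs to the arcuate and ventromedial core of the MBH. Transcripts made only in them would bear on how far the dissected piece reached. Which nucleus a transcript came from was not tested. Cga, the subunit shared by thyrotropin and the gonadotropins, and Tshb are made by thyrotrophs and by the pars tuberalis, a sheet of pituitary tissue along the median eminence, whereas lactotrophs and somatotrophs of the main anterior lobe make prolactin and growth hormone.

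Avp and Oxt are neighbours on chromosome 2 (GRCm38), at chr2:130580620-130582554 on the minus strand and chr2:130576173-130577054 on the plus strand, with 3565 bases between them. Hcrt lies at chr11:100761069-100762931 (minus strand) and Pmch at chr10:88091072-88092375 (plus strand). The promoter windows of these 4 genes are shown because Avp and Oxt are the neighbouring pair and Hcrt and Pmch are the pair with the highest correlation over the MBH inputs, a relation whose call rests on 1 library (values are given with the relations). Each window runs from 250 bases before to 50 bases after the RefSeq start site (GRCm38.p6), written 5′ to 3′ on the gene's own strand. Capitals mark matches, on either strand, to TATAAA, its variant CATAAA, the E-box CACGTG bound by clock proteins, the nuclear receptor half-site AGGTCA and the cyclic AMP element TGACGTCA.
Avp, chr2:130582539-130582838: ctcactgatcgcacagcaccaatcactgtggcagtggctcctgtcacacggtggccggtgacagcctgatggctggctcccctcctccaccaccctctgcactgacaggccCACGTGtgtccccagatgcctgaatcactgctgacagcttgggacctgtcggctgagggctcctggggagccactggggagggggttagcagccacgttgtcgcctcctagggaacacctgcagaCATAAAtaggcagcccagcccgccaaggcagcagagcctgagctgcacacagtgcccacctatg
Oxt, chr2:130575919-130576218: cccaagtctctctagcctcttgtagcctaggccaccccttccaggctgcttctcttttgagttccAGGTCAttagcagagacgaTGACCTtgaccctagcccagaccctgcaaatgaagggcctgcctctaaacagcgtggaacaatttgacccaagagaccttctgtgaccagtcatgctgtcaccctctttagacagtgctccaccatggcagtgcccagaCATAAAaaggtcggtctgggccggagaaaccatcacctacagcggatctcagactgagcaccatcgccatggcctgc
Hcrt, chr11:100762882-100763181: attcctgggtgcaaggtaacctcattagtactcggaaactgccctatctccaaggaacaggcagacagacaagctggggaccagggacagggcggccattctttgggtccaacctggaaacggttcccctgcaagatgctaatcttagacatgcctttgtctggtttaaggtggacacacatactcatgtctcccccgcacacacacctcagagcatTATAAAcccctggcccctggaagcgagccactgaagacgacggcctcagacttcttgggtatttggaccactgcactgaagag
Pmch, chr10:88090822-88091121: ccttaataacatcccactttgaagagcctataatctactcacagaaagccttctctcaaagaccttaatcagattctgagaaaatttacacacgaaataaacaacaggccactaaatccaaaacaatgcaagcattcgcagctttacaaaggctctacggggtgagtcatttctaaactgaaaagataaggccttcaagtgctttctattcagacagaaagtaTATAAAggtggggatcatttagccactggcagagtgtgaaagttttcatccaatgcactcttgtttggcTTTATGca
Avp and Oxt both held CATAAA shortly before the start site, at positions -14 and -27, a word found in 11.9% of all 32851 windows of this length. Hcrt and Pmch instead held TATAAA, at positions -33 and -27, which 13.6% of all windows hold. Avp alone among the 4 held CACGTG (position -139, 7.15% of all windows), and Oxt alone held AGGTCA, in both orientations at positions -185 and -166 (16.3% of all windows). The Oxt window holds TGACCT as the reverse complement of AGGTCA, and the Pmch window holds TTTATG as the reverse complement of CATAAA at position 43. TGACGTCA was in none of the 4 windows and in 1.79% of all windows. RefSeq gave a window for 8 of the 10 genes, and for Crh and Gh none was used here.

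Total counts per library were 36542586 to 80084056 in the MBH inputs, 21782798 to 73940674 in the MBH IP libraries, 29492622 to 95079227 in the DVC inputs and 102116189 to 191252522 in the DVC IP libraries. A total of 6 libraries had counts for under 12000 genes, all of them IP libraries, 5 from the MBH. Among the inputs, saline 2 of the MBH stood apart with the fewest genes (12853) and is followed below. The labelled regions matched their defining genes. All 7 arcuate and ventromedial genes tested were higher in MBH inputs than in DVC inputs, where 10.2% of all genes tested were higher, with a median log2 difference of 4.58 against -0.10 over all genes tested. They were led by Fezf1 (88.2 ± 23.8 against 0.265 ± 0.919 CPM, counts scaled to library size with TMM factors, SD, n = 12 each), Nr5a1 (54.2 ± 27.2 against 0.189 ± 0.653), Agrp and Ghrh. All 5 hindbrain genes were lower, and Hoxb5 and Hoxa5 had 0 counts in all 12 MBH inputs. In bulk tissue, fewer cells of a type and less RNA per cell cannot be told apart, so every level below mixes both.

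Vasopressin was the most abundant hormone transcript of the MBH inputs. Avp ranged from 7.71 to 155.6 CPM with a median of 79.5, and its mean was 85.5 ± 48.0 (SD, n = 12). The lowest libraries were saline 2 (7.71 CPM) and combination 3 (15.3), while the other 10 lay at 59.8 or above. Oxt was lower and less spread, from 10.4 to 43.2 CPM with a median of 24.4 and a mean of 25.7 ± 9.41. Saline 2, the library lowest in Avp, held 33.5 CPM of Oxt, while 2 libraries were higher.

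The lateral hypothalamic peptides differed from each other in spread. Pmch ranged from 38.6 to 141.3 CPM, with a median of 58.3 and a mean of 67.5 ± 30.1 (SD, n = 12). Hcrt ranged from 3.13 to 97.8 CPM, with a median of 13.5 and a mean of 20.6 ± 25.0. Its highest library was saline 1, and the other 11 lay at 24.4 CPM or below. Saline 1 was also the highest in Pmch, Avp and Oxt. The Pmch gene overlaps exons of the antisense gene Parpbp, and the libraries keep no strand, so reads in the shared part cannot be assigned to either gene.

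The releasing hormones stood far apart. Trh, the releasing hormone of the thyroid axis, was found in all 12 MBH inputs, from 2.91 to 28.1 CPM with a median of 12.7 and a mean of 12.9 ± 5.88 (SD, n = 12). Both extremes were AC170222 libraries (replicates 1 and 2). Crh had 0 counts in 6 of the 12 MBH inputs, and the highest was 2.10 CPM (median 0.301, mean 0.626 ± 0.770).

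**Figure D1:**
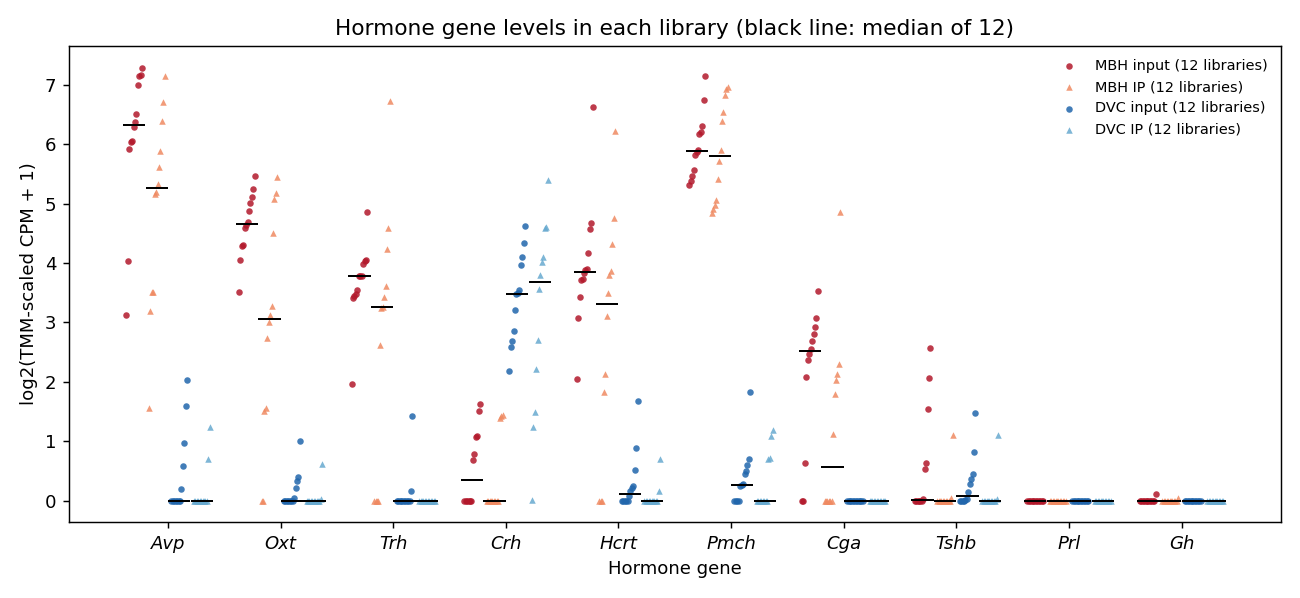
Levels of the 10 hormone genes on a log2(CPM + 1) axis, 1 point per library, with circles for inputs, triangles for IP libraries, red and orange for MBH and blue shades for DVC. Black lines mark the median of 12 libraries. Avp, Oxt, Trh, Hcrt and Pmch are high in MBH inputs and near 0 in DVC, Crh is the reverse, and Prl lies at 0 throughout.

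Divided by exon length, so that genes can be compared, the order of mean levels in the MBH inputs was Avp (148.2 ± 83.3 CPM per kb, SD, n = 12), Pmch (90.1 ± 40.2), Oxt (47.9 ± 17.5), Hcrt (27.5 ± 33.4), Trh (9.35 ± 4.25), Cga (4.66 ± 3.32), Crh (0.474 ± 0.584), Tshb (0.203 ± 0.355), Gh and Prl. Within libraries, Avp was above Pmch in 10 of 12, Pmch above Oxt in 12, Oxt above Hcrt in 11, Hcrt above Trh in 11, Trh above Cga in 10 and Cga above Crh in 10. Crh was above Tshb in 5 of 12 libraries, so these neighbours did not separate. The spread of Avp and Hcrt (SD) was wide enough to span the mean of the next gene.

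The first comparison asks which of these transcripts belong to which region. Of the 8 hormone genes tested between the inputs (12 libraries each, edgeR's quasi-likelihood test with Benjamini-Hochberg adjustment over 18576 genes), 6 were higher in the MBH, where 10.2% of all genes tested were higher, and Crh was lower, as were 11.7% of all genes (21.9% in either direction). Prl and Gh did not pass the filter on low counts.

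The hypothalamic peptides were near 0 in the DVC inputs. Avp ranged from 0 to 3.08 CPM there, with 0 counts in 7 of 12 libraries, and all 12 MBH inputs lay above all 12 DVC inputs. The ratio of means was 153-fold (edgeR adjusted p = 2.71e-05). Oxt ranged from 0 to 1.01 CPM in DVC inputs with 7 of 12 at 0, and the ratio of means was 174-fold (edgeR adjusted p = 1.44e-06). Trh was found in 2 DVC inputs only, saline 2 (0.116 CPM) and AC3174 2 (1.67), and the ratio of means was 87.0-fold (edgeR adjusted p = 5.11e-05).

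Pmch and Hcrt followed the same division. Pmch ranged from 0 to 2.55 CPM in DVC inputs (median 0.206), a ratio of means of 160-fold (log2 7.67 ± 0.83, SE, edgeR adjusted p = 1.37e-06). Hcrt ranged from 0 to 2.20 CPM (median 0.0855), a ratio of 62.2-fold (log2 6.33 ± 1.08, edgeR adjusted p = 2.57e-04). For these 5 genes no DVC input reached the lowest MBH input, which held for 1.46% of all genes tested.

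The sizes of these ratios rest on a few DVC libraries with counts. AC3174 1 held 3.08 CPM of Avp, 1.01 of Oxt and 2.20 of Hcrt, the highest DVC input for each, and without it the ratios became 259-fold, 369-fold and 127.5-fold. Without AC3174 2 the ratio for Trh became 1232-fold, and without combination 1, the highest in Pmch, that of Pmch became 294-fold. On the MBH side only saline 1 moved a ratio by more than 1.5 times, taking that of Hcrt to 41.0-fold. The calls were kept in each of the 24 fits that left out 1 library, where the fitted log2 difference of Pmch reached 9.39 without DVC AC3174 1 and that of Hcrt 7.88 without DVC saline 2. Each of these libraries was the only input of its DVC group with counts for that gene. Those fits therefore held a group at 0 throughout. In the IP libraries the ratio of MBH to DVC means, with no test, was 290-fold for Avp and 220-fold for Pmch. Avp was found in 2 of the 12 DVC IP libraries, AC3174 1 (1.36 CPM) and combination 1 (0.622), whose inputs of the same number (3.08 and 2.01 CPM) were the highest of the DVC inputs.

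Crh was the exception among the hypothalamic releasing hormones. It is also made by neurons of the brainstem. In the DVC inputs it ranged from 3.52 to 23.6 CPM with a median of 10.2 and a mean of 11.1 ± 6.18 (SD, n = 12), and no library was at 0. All 12 lay above the highest MBH input (2.10 CPM), as did 2.08% of all genes tested, and the ratio of means was 17.7-fold (edgeR adjusted p = 2.89e-04). Leaving out any 1 library kept this ratio between 15.9 and 22.5. Among related genes fixed as a list (Ucn, Ucn3, Crhbp, Trhde and Lnpep), 1 of 4 tested was called, a share near the 21.9% of all genes called in either direction. Ucn, the CRH-related peptide urocortin, had 0 counts in all MBH inputs and 0.925 ± 1.04 CPM in the DVC (edgeR adjusted p = 0.0048).

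Of 14 receptors of these hormones in the table, 12 were tested and none was called, where 21.9% of all genes tested were called in either direction (lowest edgeR adjusted p = 0.0797, with 2 at an unadjusted p under 0.05). Their median log2 difference was -0.21. The most abundant were Prlr, the prolactin receptor, at 12.3 ± 7.83 CPM in MBH and 9.05 ± 5.86 in DVC inputs, and Ghr, the growth hormone receptor, at 10.7 ± 7.56 and 9.48 ± 3.00 (SD, n = 12 each). The summed level of the 14 was 65.1 CPM in the median MBH input and 0.776 CPM in saline 2.

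The pituitary hormones were split. Cga ranged from 0 to 10.5 CPM in MBH inputs, with a median of 4.71, a mean of 4.44 ± 3.17 (SD, n = 12) and 0 counts in 2 libraries, saline 3 and AC170222 1. It had 0 counts in all 24 DVC libraries. Set against a floor of 3 counts over the 12 DVC inputs, the mean of Cga was 1177-fold higher in the MBH (edgeR adjusted p = 5.35e-04). That floor covers counting error only, and 2 MBH inputs were at 0 as well. The call of Cga was lost when each treatment and replicate number was a block, which pairs same-numbered MBH and DVC inputs (edgeR adjusted p = 0.0604). Exons of Cga overlap those of the antisense gene Platr9, and unstranded reads in that part cannot be assigned.

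Tshb was sparse and uneven. It had 0 counts in 6 of 12 MBH inputs, and the highest were saline 1 (4.95 CPM), AC3174 2 (3.20) and AC170222 2 (1.92). In DVC inputs 8 of 12 libraries held Tshb, up to 1.79 CPM, and the groups overlapped (means 0.925 against 0.295 CPM, edgeR adjusted p = 0.276). With the same block of treatment and replicate number the fitted log2 difference turned from 2.51 to -0.43. The Tshb gene overlaps Tspan2 on the other strand, with no exon overlap. Unstranded reads from unspliced Tspan2 RNA in that part could be counted as Tshb. Their part in any Tshb value of this report was not tested. Prl had 0 counts in all 48 libraries. With 3 counts as the limit that a count of 0 allows, this corresponds to 0.0375 to 0.0821 CPM per MBH input. That limit covers counting error only, not losses before sequencing. Gh had 3 counts in 1 MBH input, AC3174 1, and 1 count in the IP library of the same number, and 0 in the other 46.

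In the list of 8 anterior pituitary genes in the table, 4 were tested, of which Pitx1 was higher and Pou1f1 lower in the MBH. Pitx1, a transcription factor of all pituitary lineages, was at 5.56 ± 4.84 CPM in the MBH inputs and had 0 counts in every DVC input (edgeR adjusted p = 3.71e-04). Its highest libraries were AC3174 2 (14.8 CPM) and AC3174 1 (14.0), and saline 2 and combination 2 were at 0. Pou1f1, which drives the Prl, Gh and Tshb genes, was at 0.242 ± 0.0777 CPM in MBH and 0.587 ± 0.201 in DVC inputs (edgeR adjusted p = 0.0484). Gnrhr and Ghrhr had 0 counts in all MBH inputs, and the summed level of the 8 genes ran from 0.361 to 31.6 CPM with a median of 12.5.

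Of the 3 pars tuberalis genes (Pitx1, Mtnr1a and Eya3), Mtnr1a, the melatonin receptor that defines this tissue, had 0 counts in every MBH library. Eya3, a coactivator that long days induce there, ranged from 0 to 12.9 CPM in MBH inputs and was not called. Of the 4 genes listed for tanycytes, the cells that line the third ventricle beside it, Rax and Gpr50 were higher in the MBH. Rax was at 13.2 ± 6.79 against 0.0662 ± 0.179 CPM in DVC (edgeR adjusted p = 1.76e-05). Gpr50 was at 11.3 ± 8.48 against 0.652 ± 1.60 CPM (edgeR adjusted p = 0.00121). No values are given here for Dio2 and Col25a1. The summed level of the 4 genes overlapped between regions, at 3.45 to 71.3 CPM in MBH inputs (median 42.4) and 15.5 to 50.7 in DVC inputs (median 25.7). The part of pituitary tissue in the level of Cga was not tested.

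**Figure D2:**
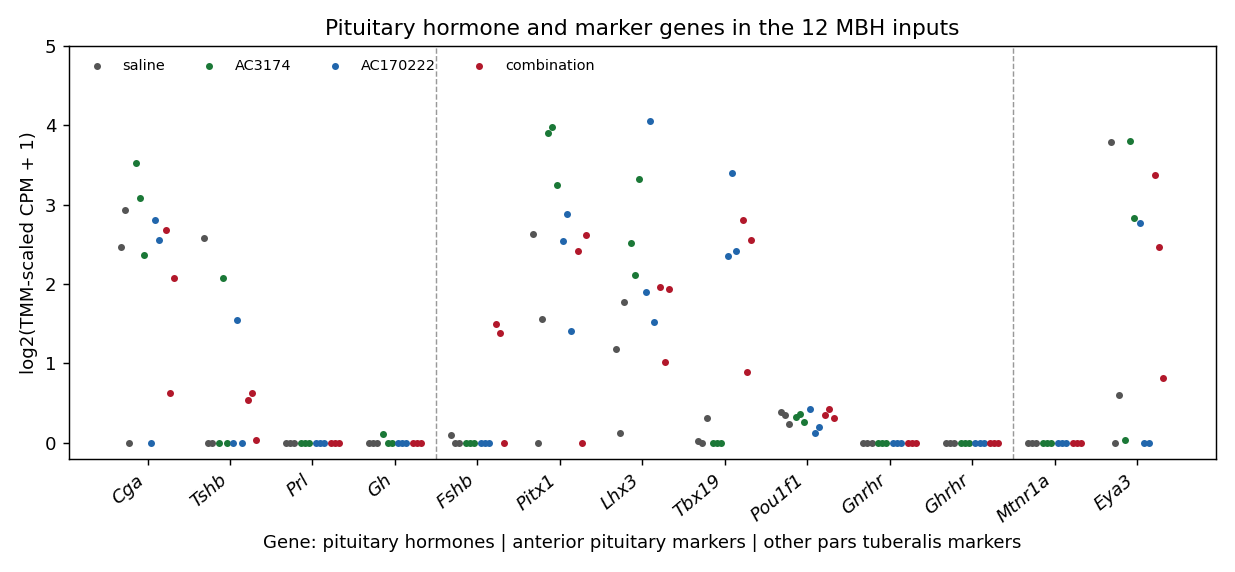
Pituitary hormone genes (left), anterior pituitary markers (middle) and 2 further pars tuberalis markers (right) in the 12 MBH inputs, on a log2(CPM + 1) axis, 1 point per library, coloured by treatment. Cga, Pitx1 and Lhx3 are present in most libraries, and Prl, Gnrhr, Ghrhr and Mtnr1a lie at 0 in all 12.

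Genes listed as markers of nuclei around the MBH are set beside the hormone levels. Several lists were split, and the reach of the piece itself was not tested. Of 4 transcription factors of paraventricular and supraoptic neurons, Sim1 was called, at 7.98 ± 8.49 CPM against 0.0527 ± 0.183 in DVC inputs (edgeR adjusted p = 0.00153), with 2 MBH inputs at 0 (AC170222 1 and 3). Otp, which the same neurons need, was at 1.11 ± 1.01 against 0.25 ± 0.251 CPM (edgeR adjusted p = 0.0534). Of 5 lateral hypothalamic genes, Pdyn (34.4 ± 13.3 against 10.1 ± 6.73 CPM) and Cartpt (59.6 ± 13.9 against 23.1 ± 8.17), both also made in other nuclei, were higher and Lhx9 was lower (0.939 ± 1.35 against 3.62 ± 3.02). Of 5 suprachiasmatic genes, Six6 (28.9 ± 12.1 CPM against 0.00203 ± 0.00474) and Prok2 (0.523 ± 0.836 against 0.0540 ± 0.187) were higher. Vip, the peptide that defines the core of that nucleus, was lower (0.352 ± 0.906 against 5.30 ± 3.73 CPM) and had 0 counts in 10 of 12 MBH inputs. Foxb1, 1 of the 2 mammillary genes, was higher, at 24.3 ± 15.7 against 2.17 ± 2.56 CPM.

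Lists from farther away were mixed or low. For these and the lists above, the share over all genes tested between the inputs was 10.2% higher and 11.7% lower in the MBH. Of the 4 thalamic genes, Tcf7l2 and Lef1 were higher and Gbx2 and Prkcd lower in MBH. Among telencephalic genes, Neurod6 was lower in MBH. Both raphe serotonin genes tested, Tph2 and Fev, were lower. The choroid plexus genes Ttr and Kcnj13, 2 of 4 in their list, were lower. Mbp, Mog, Aqp4 and Slc1a2, the 4 glial genes, were all lower, as were 2 of 3 neuronal genes (Snap25 and Syt1) and Hbb-bs, 1 of 4 microglial, endothelial and blood genes. The part of tissue makeup in the hormone differences was not tested.

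The second comparison asks whether hormone transcripts were richer on phosphorylated ribosomes. In the MBH none of the 8 hormone genes tested was called (12 IP against 12 input libraries), where 0.452% of all 17461 genes tested were called. At an unadjusted p under 0.05 there was 1, Tshb, and DESeq2 called none of the 6 to which it gave an adjusted p. In the IP libraries Avp ranged from 1.95 to 140.9 CPM with a median of 37.4, and it was lower than in the input of the same treatment and number in 10 of 12 pairs of libraries. The labels do not say that equal numbers mark the same homogenate, and the deviations from group means correlated over 0.1 across genes in 0 of these 12 pairs (median r = -0.0047). The fitted log2 difference was -1.01 ± 0.56 (SE, edgeR adjusted p = 0.577). Saline 2 and combination 3, the numbers with the least Avp in the input, were among the 4 lowest in the IP, at 10.5 and 1.95 CPM.

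Oxt was lower in the IP in 9 of 12 such pairs, with a median of 7.36 CPM and 0 counts in AC170222 2 and combination 3 (log2 -1.11 ± 0.87, SE, edgeR adjusted p = 0.87). Pmch was found in every IP library, from 27.7 to 124.4 CPM with a mean of 67.1 ± 37.8 (SD, n = 12), close to the 67.5 CPM of the inputs. Trh had 0 counts in 4 IP libraries and reached 105.4 CPM in AC3174 3, the library with the fewest genes (6285). Hcrt had 0 counts in 3 IP libraries and was highest in saline 1 (74.0 CPM), as in the input. Cga had 0 counts in 6 IP libraries and reached 27.99 CPM in AC170222 3 (log2 -0.88 ± 1.48, SE, edgeR adjusted p = 1).

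These zeros fell both in libraries where few genes were detected and in others. Of the 12 MBH IP libraries, the 5 with under 12000 genes were saline 3, AC3174 2, AC3174 3, AC170222 2 and AC170222 3. Trh was at 0 in 3 of them and in combination 3, and Hcrt was at 0 in 3 of them. Cga was at 0 in 3 of them and in saline 1, AC170222 1 and combination 2, and Oxt was at 0 in 1 of them and in combination 3. Without these libraries none of the 8 hormone genes was called either (lowest edgeR adjusted p = 0.351). In the MBH no gene of the 18 other lists was called between IP and input.

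**Figure D3:**
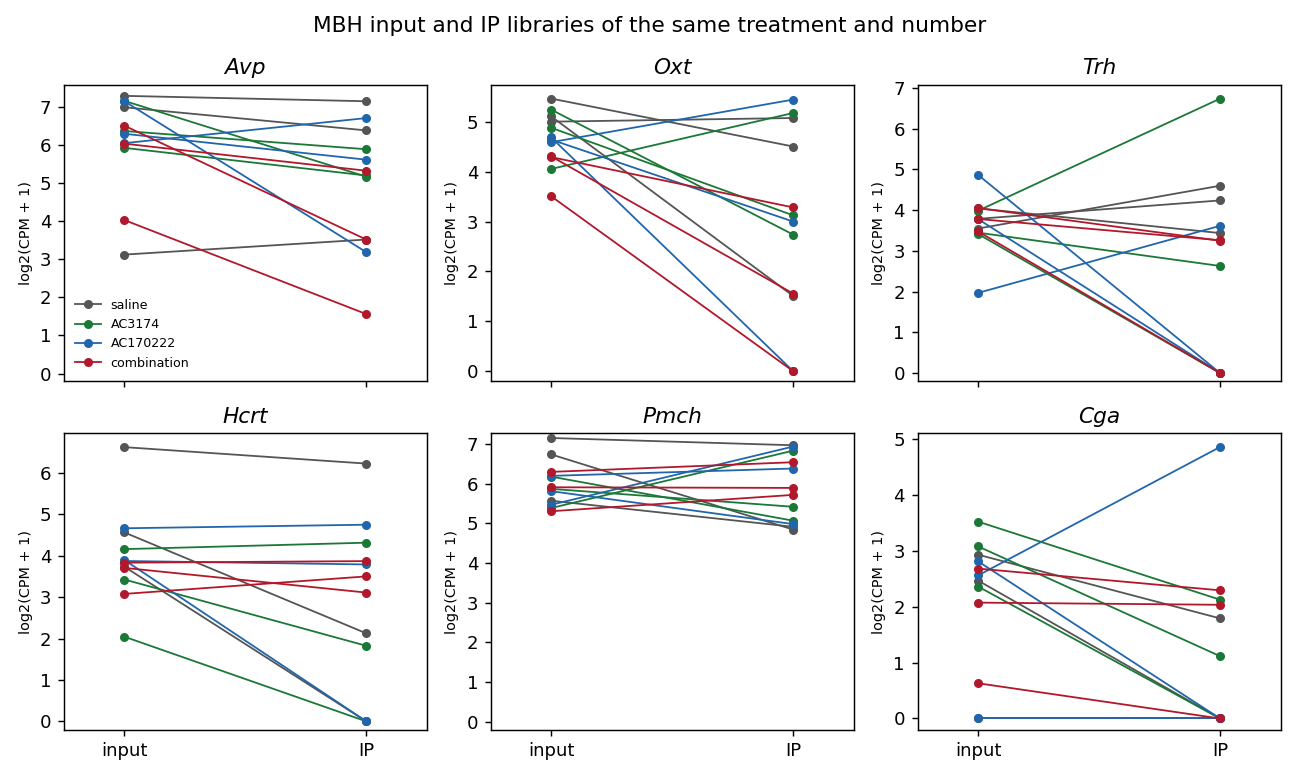
Levels of 6 hormone genes in MBH input (left) and IP (right) libraries on a log2(CPM + 1) axis, with a line joining the libraries of the same treatment and number (not labelled as the same homogenate), coloured by treatment. Avp is lower at the IP end of 10 of the 12 lines, Pmch stays in a narrow band, and Oxt, Trh, Hcrt and Cga reach 0 in some IP libraries.

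In the DVC, 6 hormone genes were tested between IP and input and Tshb was called lower in the IP, as were 13.6% of all 18465 genes tested (20.4% in either direction). Tshb was at 0.0962 CPM on average, with 10 of 12 IP libraries at 0, against 0.295 CPM and 4 of 12 at 0 in the inputs (edgeR adjusted p = 0.0229). The call was lost without the input saline 3 (adjusted p = 1.00), AC3174 1 (0.0531) or AC170222 1 (0.0572), and Tshb had 191 counts in the 12 inputs and 114 in the 12 IP libraries. Crh, the hormone gene that the DVC expressed, ranged from 0.0102 to 41.1 CPM in the IP, with a mean of 12.9 ± 12.02 (SD, n = 12) against 11.1 ± 6.18 in the inputs, and the groups overlapped. Hcrt was found in 2 of 12 DVC IP libraries and 7 of 12 inputs (edgeR adjusted p = 0.0584, and 0.0297 without the IP library saline 1 or 0.0468 without combination 1).

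Among the receptors, Trhr (0.649 ± 1.54 CPM in the DVC IP against 5.60 ± 5.77 in the inputs, edgeR adjusted p = 0.0193) and Ghr (2.42 ± 4.27 against 9.48 ± 3.00, edgeR adjusted p = 0.0221) were lower in the IP. These are 2 of 12 tested, a share near the 13.6% of all genes that were lower. Trhde, the enzyme that degrades TRH, was also lower, at 2.43 ± 6.32 against 4.96 ± 4.12 CPM (edgeR adjusted p = 0.0457). These genes had 0 counts in 10, 7 and 6 of the 12 IP libraries. Across the other lists, Otp, Tacr3, Tac2, Gbx2, Hoxa5, Fev, Mbp, Csf1r, Cx3cr1 and Cldn5 were lower in the IP, and Tcf7l2, Snap25 and Hbb-bs were higher. The part of this change of cell type markers in the hormone values was not tested.

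The third question is whether the drugs moved these transcripts. In the MBH inputs no gene of the 16622 tested (0%) passed an adjusted p of 0.05 by edgeR for AC3174, AC170222 or the combination against saline. For the 8 hormone genes tested the count was therefore 0 in each, with 2, 0 and 2 at an unadjusted p under 0.05. DESeq2 called 437 genes higher and 303 lower for AC3174, 359 and 214 for AC170222, and 522 and 49 for the combination, none of them among the 7 hormone genes to which it gave an adjusted p. No gene of the 18 other lists was called by edgeR for any drug. The comparisons share the 3 saline libraries.

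Oxt had the most orderly values. In the saline inputs it was at 43.2, 33.5 and 31.1 CPM, with AC3174 at 28.5, 36.9 and 15.6, with AC170222 at 24.0, 24.8 and 23.1, and with the combination at 18.6, 18.8 and 10.4. All AC170222 and all combination libraries were below all saline libraries, which held for 3.66% and 7.6% of all genes tested, and AC3174 overlapped saline. The group means were 35.9 ± 6.43, 27.0 ± 10.7, 24.0 ± 0.822 and 15.9 ± 4.81 CPM (SD, n = 3 each). The log2 difference was -1.14 ± 0.43 for the combination (SE, edgeR unadjusted p = 0.0230, adjusted p = 0.566), -0.59 ± 0.43 for AC170222 (adjusted p = 0.874) and -0.40 ± 0.43 for AC3174 (adjusted p = 0.892). The first letter of the library code was the same for saline and AC3174 and another for AC170222 and the combination, so that letter and those drugs cannot be told apart. In the MBH IP libraries Oxt overlapped between all groups (means 18.8 ± 15.7, 16.2 ± 16.5, 16.5 ± 22.8 and 3.56 ± 4.59 CPM).

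Hcrt differed mainly through saline 1. In the saline inputs it was at 97.8, 22.7 and 12.3 CPM, with AC3174 at 9.76, 16.9 and 3.13, with AC170222 at 13.7, 24.4 and 13.9, and with the combination at 12.1, 7.46 and 13.3. All drug groups overlapped saline. The log2 differences were -2.13 ± 0.83, -1.34 ± 0.81 and -1.98 ± 0.83 (SE, edgeR adjusted p = 0.56, 0.782 and 0.566). Without saline 1 they were -0.81, -0.02 and -0.65.

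Pmch was at 141.3, 105.8 and 46.6 CPM in the saline inputs, at 71.5, 57.5 and 40.9 with AC3174, at 55.2, 72.4 and 43.3 with AC170222 and at 59.2, 38.6 and 77.7 with the combination. The log2 differences were -0.77 ± 0.42, -0.78 ± 0.42 and -0.71 ± 0.42 (SE, edgeR adjusted p = 0.593, 0.724 and 0.687), and all groups overlapped. The code columns group libraries by the number in their code, as 01-02, 03-04 or 05-06. With them as a covariate the difference turned to 0.17 for AC3174 and 0.26 for the combination. Saline shares only columns 03-04 with these drugs, so column and drug can hardly be told apart in that fit. Avp was at 155.6, 7.71 and 126.1 CPM in saline and at 64.6, 90.0 and 15.3 with the combination, and its 4 group means lay between 56.6 and 96.5 CPM. Trh means lay between 11.4 and 14.6 CPM. Cga was at 4.53, 6.63 and 0 CPM in saline and at 10.5, 7.45 and 4.14 with AC3174, which overlapped. Crh was at 2.10, 1.85 and 1.13 CPM with AC170222, above the saline values of 0.602, 0.722 and 0, as were 5.26% of all genes, and it had 0 counts in the 3 AC3174 libraries.

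**Figure D4:**
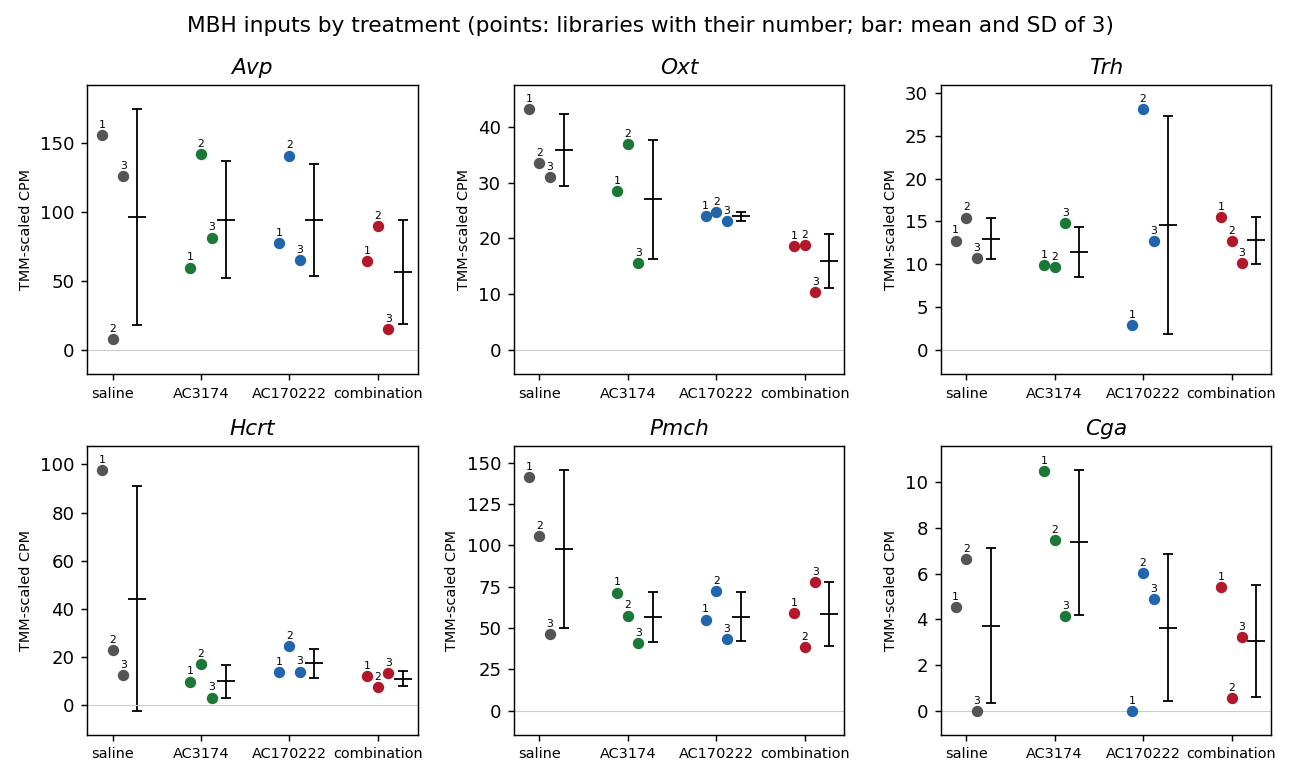
CPM of 6 hormone genes in the MBH inputs by treatment, with 1 numbered point per library and a bar for the mean and SD of 3. Oxt steps down from saline to the combination, Hcrt and Pmch are highest in saline 1, and Avp is low in saline 2 and combination 3.

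In the MBH IP libraries 0 of the 7 hormone genes tested was called for any drug by edgeR, nor any of the 6 to which DESeq2 gave an adjusted p, with 0 at an unadjusted p under 0.05, and no gene of the 14766 tested (0%) was called by edgeR. Trh was at 17.8, 9.81 and 23.2 CPM in saline and at 8.49, 8.57 and 0 with the combination, all lower, as were 3.09% of all genes tested. Avp was at 140.9, 10.5 and 82.5 CPM in saline and at 39.1, 10.4 and 1.95 with the combination, and the groups overlapped.

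In the DVC, where only Crh was abundant, the drug comparisons were added after the values had been seen. Crh was at 8.28, 6.23 and 10.6 CPM in the saline inputs, at 23.6, 14.7 and 10.3 with AC3174, at 10.1, 5.43 and 4.97 with AC170222 and at 19.2, 3.52 and 16.2 with the combination. All 3 drug groups overlapped saline. The log2 differences were 0.97 ± 0.62, -0.27 ± 0.61 and 0.64 ± 0.61 (SE, edgeR adjusted p = 1 in each). In the IP it was at 1.36, 0.0102 and 23.0 CPM in saline, at 16.2, 15.2 and 41.1 with AC3174, at 5.55, 1.80 and 3.64 with AC170222 and at 10.8, 12.9 and 23.2 with the combination. In input and IP the group mean was highest with AC3174 and lowest with AC170222, and every drug group overlapped saline. Tshb in DVC inputs was at 0, 0 and 0.107 CPM in saline and at 0.760, 0.283 and 1.79 with the combination, all higher, as were 3.95% of all genes tested (edgeR adjusted p = 0.901). No hormone gene was called by edgeR in the DVC, where 0% of all genes were called in each of the 6 comparisons, with 1 hormone gene (Oxt with AC3174) at an unadjusted p under 0.05. DESeq2 called Avp lower with AC170222 in the inputs, where Avp was at 0.150, 0.964 and 0 CPM in saline and at 0 in all 3 AC170222 libraries. By edgeR its unadjusted p was 0.0639. The number of all genes that DESeq2 called in that comparison is not reported here, so the call is not read as particular to Avp.

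The last question is whether hormone genes rose and fell together over the 12 MBH inputs. Levels were compared as log2(CPM + 1) for the 6 genes whose mean reached 1 CPM, which gave 15 pairs, with 100000 permutations and Benjamini-Hochberg adjustment over the pairs. Only Hcrt and Pmch passed, with Pearson's r = 0.822 (n = 12, permutation p = 6.2e-04, adjusted p = 0.0093). Spearman's rho was 0.664 (permutation adjusted p = 0.213). Without saline 1 and AC3174 3, the libraries farthest from the median of Hcrt, r was 0.627 (n = 10, permutation p = 0.0512), and without saline 1 alone r was 0.657 (adjusted p = 0.199), so the call rests on that library. As deviations from treatment means r was 0.807 (permutation adjusted p = 0.0207). Deviations were permuted across treatments, so this p may be too small.

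Oxt and Hcrt had r = 0.624 and rho = 0.643 (permutation adjusted p = 0.25 and 0.213), and r = 0.792 without combination 3 (adjusted p = 0.0157). Avp and Oxt, the neighbouring magnocellular genes, had r = 0.343 and rho = 0.448 (permutation adjusted p = 0.686 and 0.526). Without saline 2, in which Avp was lowest but Oxt was not, r was 0.811 (adjusted p = 0.0234), and without saline 2 and combination 3 it was 0.634 (n = 10, permutation p = 0.0546). The code columns split the 12 inputs into sets of 4, too few for a value within each.

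**Figure D5:**
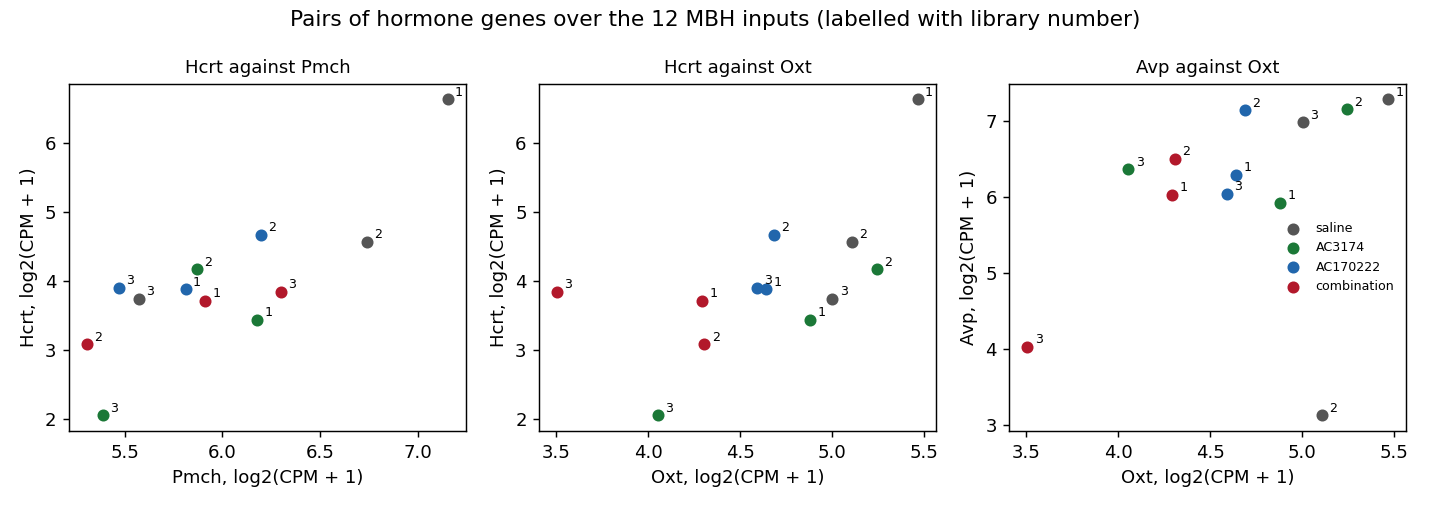
Hcrt against Pmch, Hcrt against Oxt and Avp against Oxt in the 12 MBH inputs, both axes as log2(CPM + 1), with library numbers and treatment colours. Saline 1 is the upper right point in all 3 panels. In the Avp panel saline 2 and combination 3 lie below the other points, at 7.71 and 15.3 CPM of Avp.

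Between input and IP of the same number, which the labels do not tie to 1 homogenate, none of the 6 genes passed in the MBH. Hcrt had r = 0.668 and rho = 0.606 (n = 12, permutation p = 0.0123, adjusted p = 0.0737 for r and 0.24 for rho), and r = 0.223 without saline 1 and AC3174 3. As deviations from treatment means it had r = 0.865 (permutation adjusted p = 0.00264, which may be too small because deviations were permuted across treatments). Avp had r = 0.567 and rho = 0.308 (permutation adjusted p = 0.162 and 0.667), and r = -0.05 without saline 2 and combination 3, so these values rest on those libraries. For Pmch r was 0.049 (rho 0.021, adjusted p = 0.879 and 0.97).

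Over the same 12 inputs the 3 genes whose pattern was most like each hormone gene were taken from 11056 genes by Pearson's r on log2(CPM + 1), as a description. For Hcrt they were Cartpt (r = 0.867), Rwdd2b (0.865) and Dcbld1 (0.837), and Pmch ranked 6. For Pmch they were Tmem205 (0.867), Nrsn2 (0.857) and Cartpt (0.856), and Hcrt ranked 11. Cartpt, the feeding peptide precursor CART, is the gene that both shared, at 59.6 ± 13.9 CPM. For Avp they were Gm13112 (0.931), Lig4 (0.916) and Nasp (0.915), for Oxt Nfu1 (0.936), Psmd10 (0.925) and Sra1 (0.894), and for Trh Zc3h7a (0.917), Dhx38 (0.891) and Pak7 (0.882). Among the genes ordered by likeness to Avp, its neighbour Oxt ranked 4148 (r = 0.343). Without saline 2, the input with the fewest genes and the least Avp, r between them was 0.811. The rank of Oxt and the genes named for Avp may therefore rest on that library. No ranking was repeated with a library left out, and saline 1 was the highest input in both Hcrt and Pmch.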

How the data were processed

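RNA was sequenced in 48 mouse libraries, 3 in each of 16 groups. Per the labels' protocols, cDNA was amplified with SMART-Seq v4 and made into Nextera XT libraries, which are unstranded. The submitters' processing notes name the build GRCm38 and the tools HTSeq 0.6.1p1 and TopHat2 2.0.11. The authors deposited raw read counts per gene, and the sources used here do not give their annotation or counting settings. Symbols and positions came from GENCODE M21 and promoter windows from RefSeq (GRCm38.p6). Symbols matched 36345 of the 38293 identifiers. Kiss1 and Lhb were not analysed here.

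Counts were tested with edgeR 4.0.16 under R 4.3.3 (2-sided quasi-likelihood F test after TMM and filterByExpr), with all input libraries, all libraries of a region, or the 12 libraries of a region and RNA kind in a fit. Benjamini-Hochberg adjustment ran over all genes of a comparison, and genes were called at an adjusted p under 0.05. CPM used TMM-scaled totals over all 48 libraries. CPM are given ± SD, and log2 differences ± SE. An SE is given only where no group of 3 was at 0 throughout. A fold against a group at 0 used a floor of 3 counts over that group. Correlations used log2(CPM + 1). Alternatives were RLE factors, DESeq2 1.42.0, no filter, leaving out each library, libraries under 12000 genes left out, code columns as a covariate, a replicate block, and other pseudocounts. That block was each treatment and replicate number between regions and between IP and input, and the replicate number alone for the drugs. The script was tested on simulated data. Reads carry no molecular identifiers, so floors cover counting error only. Replicate libraries differed by a chi-square of at least 135.1 per degree of freedom, so no copies were found.

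All 10 hormone genes are named in the comparisons. From each of 18 lists up to 4 called genes with the largest change are named, or else the 2 most abundant, and a few list genes are not reported here. For hormone genes of at least 5 CPM in MBH inputs, the 3 genes of highest r are named. Otp, Eya3, Lhx3 and Vip values shown beyond that rule were chosen after they were seen. The genes and lists were chosen with earlier results of these data known, and the DVC drug comparisons were added after values were seen.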

Additional observations from a re-analysis of the deposited data

How the results depend on the processing

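Between the input regions 7 hormone genes were called with RLE factors, DESeq2, no filter and in all 24 fits that left out 1 library. The correlation of deviations between same-numbered libraries was over 0.1 in 3 of 18 pairs of MBH inputs, 4 of 18 of DVC inputs and 3 of 18 of DVC IP libraries. Among MBH IP libraries it was over 0.1 in 14 of 18 pairs (median 0.159), and 10 of 12 were most like their own number, a hint from the data of shared deviations there. Since no kind of library had every pair over 0.1, the numbers were not taken as a pairing. A block of each treatment and number, which does pair same-numbered libraries, was fitted as an alternative only. With it, Cga was no longer called between regions (edgeR adjusted p = 0.0604, leaving 6 genes), and Tshb reversed to a log2 difference of -0.43 from 2.51. The count of hormone genes called between DVC IP and input then fell from 1 to 0 (Tshb edgeR adjusted p = 0.132). Leaving out 1 library, that count ranged from 0 to 2. DESeq2 called 1 hormone gene for AC170222 in DVC inputs (Avp, adjusted p = 9.21e-06) where edgeR called 0. The number of all genes that DESeq2 called there is not reported here. With the code columns as a covariate the log2 difference of Pmch in MBH inputs reversed to 0.17 for AC3174 and 0.26 for the combination. Those drugs share only columns 03-04 with saline, so that fit can hardly part column from drug. The number of related pairs ranged from 0 to 2 without 1 library. The number of genes related between input and IP was 1 with deviations from treatment means, where p may be too small, and 0 to 1 without 1 library. The cause was not tested. No library under 12000 genes was an input, so that alternative applies to IP libraries only, and for the DVC IP drug comparisons DESeq2 gave no adjusted p for the hormone genes. For Prl, at 0 in all 48 libraries, depth sets only a limit from counting error, of 0.0375 to 0.0821 CPM per MBH input. Tshb was at 0 in 10 of 12 DVC IP libraries and in 4 of 12 DVC inputs, which had fewer counts.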

Other observations

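Tbx19, the transcription factor of corticotrophs, was singled out after its values were seen. In MBH inputs it was at 0.0129, 0 and 0.243 CPM in saline and at 0 in the 3 AC3174 libraries. With AC170222 it was at 4.10, 9.58 and 4.33 CPM, and with the combination at 5.99, 0.857 and 4.86 CPM. Both of the latter groups were above all saline libraries, as were 5.26% and 10.6% of all genes tested, and edgeR called it in neither. The same groups differ in the first letter of the library code, so drug and letter cannot be told apart. It had 0 counts in all MBH IP libraries.

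Fshb, the follicle-stimulating hormone subunit that pairs with Cga, had counts in 3 of 12 MBH inputs and in none of the MBH IP libraries.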
